A study of Mus musculus with 3 samples.

Results

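The genes described here are 10 members of the MHC class I antigen presentation pathway: B2m, H2-K1, H2-D1, Tap1, Tap2, Tapbp, Psmb8, Psmb9, Psmb10 and Nlrc5. They were chosen by gene name, and all 10 were among the 37646 genes listed in each count table. RNA was measured in 3 libraries of B220+GFP+ cells sorted from the spleens of pBIC2 mice on the C57BL/6 strain, which model ABC-DLBCL, a diffuse large B cell lymphoma that resembles activated B cells. The genotype of all 3 is p53F/F, Blimp1F/F, IKK2castopF/stopF, Cg1Cre/+ and Eµ-hBCL2tg/+. Cre is expressed from the Cγ1 immunoglobulin locus in B cells that switch it on, where it deletes the floxed genes of p53 and of Blimp1, a plasma cell factor, and releases a constitutively active IKK2 kinase, an activator of NF-κB. A human BCL2 transgene under the Eµ enhancer is carried as well. Spleens came from moribund or control mice, with no age in the labels. The labels give 1 group, called tumours 1, 2 and 3 here, and do not say whether each came from a separate mouse. The germinal centre B cells that the design names as normal controls were not analysed here, so the values below are levels in the lymphoma libraries and their spread, with no test against normal cells.

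MHC class I molecules show fragments of a cell's own proteins to CD8 T cells. Proteins are cut by the proteasome, whose 3 catalytic subunits are replaced by Psmb8, Psmb9 and Psmb10 in the immunoproteasome of lymphoid and interferon-treated cells. The fragments are carried into the endoplasmic reticulum by the transporter TAP, a pair of Tap1 and Tap2, and are loaded with the help of tapasin (Tapbp) onto a class I heavy chain such as H2-K1 or H2-D1 that is bound to β2-microglobulin (B2m). Nlrc5 is a transcriptional activator of class I genes, acting through the SXY motifs of their promoters together with RFX, CREB or ATF, and NF-Y proteins. NF-κB and interferon-regulated factors act on other parts of the same promoters.

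The promoters of H2-K1, H2-D1 and B2m, and the stretch that Tap1 and Psmb9 share between their opposed starts, are shown because these genes led the pathway in abundance or are divergently paired, and because their letters hold motifs of those regulators. The sequences are RefSeq's on GRCm38.p6, the build of the counts (mm10), and 8 of the 10 genes had a promoter entry, of 250 bases before to 50 after the start. Tap2 and Nlrc5 are named only. Each is written 5′ to 3′ on the gene's strand, and on the strand of Tap1 for the shared stretch. Capitals mark matches, on either strand, to NF-κB (GGG, 5 free bases, CC), the interferon response motif (GAAA, 2 free bases, GAAA), Y box ATTGG and CRE core TGACG, and in H2-K1 and H2-D1 also to the shorter interferon motif GAANNGAAA. Matches that overlap are joined.
H2-K1 (chr17:34000334-34000533, minus strand): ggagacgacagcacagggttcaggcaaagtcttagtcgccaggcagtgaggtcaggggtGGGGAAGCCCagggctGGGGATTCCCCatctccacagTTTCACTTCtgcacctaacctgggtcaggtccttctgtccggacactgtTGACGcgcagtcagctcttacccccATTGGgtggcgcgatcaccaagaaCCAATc
H2-D1 (chr17:35262848-35263047, plus strand): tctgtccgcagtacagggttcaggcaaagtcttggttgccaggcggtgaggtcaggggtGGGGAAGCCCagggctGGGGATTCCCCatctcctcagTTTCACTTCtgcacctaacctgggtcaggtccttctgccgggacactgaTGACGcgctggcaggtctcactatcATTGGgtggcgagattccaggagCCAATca
B2m (chr2:122147487-122147686, plus strand): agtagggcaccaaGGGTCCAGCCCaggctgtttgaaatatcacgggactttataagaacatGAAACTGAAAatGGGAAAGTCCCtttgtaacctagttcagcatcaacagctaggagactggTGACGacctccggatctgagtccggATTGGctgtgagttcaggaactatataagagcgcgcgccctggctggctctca
Tap1 and Psmb9 (chr17:34187331-34187555, plus strand): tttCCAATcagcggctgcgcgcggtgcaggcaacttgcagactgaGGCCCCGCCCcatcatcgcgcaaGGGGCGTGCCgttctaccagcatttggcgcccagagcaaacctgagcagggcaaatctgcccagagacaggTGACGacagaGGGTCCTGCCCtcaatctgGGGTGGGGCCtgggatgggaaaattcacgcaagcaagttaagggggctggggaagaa

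The H2-K1 and H2-D1 stretches were 86.6% identical (174 identical and 25 mismatched bases, with 2 gap columns) and shared an unbroken run of 47 bases. They were placed to line up, at positions -200 to -1 from the more downstream RefSeq start of H2-K1 and -246 to -47 from that of H2-D1. Both hold GGGGATTCCC, the first of a pair of overlapping NF-κB matches in each, and so did 35 of 32851 promoters (0.107%). This motif was searched for after these promoters had been read. The shorter interferon motif, also added after reading, was in the same 2 genes and in 7.52% of all promoters. The longer form was in B2m alone among the 8 genes and in 3.44% of all promoters. The NF-κB motif was in 5 of the 8 (B2m, H2-K1, H2-D1, Tap1 and Psmb9), near the 50.8% of all promoters that hold it. The CRE core TGACG was in the same 5 genes, against 20.8% of all promoters, and the Y box ATTGG was in those 5 and Tapbp, against 37.4%. The STAT motif TTCNNNGAA was in Psmb8 alone, against 8.30%. The RefSeq starts of Tap1 and Psmb9 have 225 bases between them, so 275 bases of their promoter windows are the same and their matches are not independent. A match describes letters in this window and is neither a measured site nor a cause.

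The libraries held 15576975, 16477997 and 17014022 gene counts, and 3 counts equal 0.199, 0.184 and 0.169 CPM (a gene's counts scaled to library size, normalised by TMM factors for library composition). B cell markers were present but not even: 8 of 10 reached 10 CPM in each library. Cr2 and Fcer2a did not, at 8.55 and 3.78 CPM in tumour 1. The 10 summed to 6475, 10440 and 8719 CPM in tumours 1, 2 and 3. A range of at least 2-fold was seen in 5 of them (41.3% of all genes with a mean of at least 1 CPM). Ms4a1 (CD20) was at 916, 2590 and 2232 CPM, with a mean of 1913 CPM. Markers of other cell types were uneven as well. The summed level of 10 T cell markers was 48.0 CPM in tumour 1, 257 in tumour 2 and 1291 in tumour 3. Cd2 alone made up most of it in tumours 1 and 2, at 35.3 and 213 CPM, and was at 381 CPM in tumour 3. Cd8a was at 0.663, 4.54 and 238 CPM in tumours 1, 2 and 3, and Cd3e was at 0 in tumour 1. The summed level of 10 macrophage markers was 36.0, 406 and 180 CPM, most of it Cd68, followed by Lyz2. The 6 NK cell genes summed to 1.86, 2.45 and 48.3 CPM, led by Prf1 and Gzma, which T cells also make, and Ncr1 was at 0 in all 3. The 8 neutrophil markers, led by Ngp and S100a9, reached 42.3 CPM in tumour 3. Dendritic cell (Ccr9, Zbtb46), erythroid (Hbb-bs, Hba-a1) and stromal or endothelial (Col1a1, Cdh5) lists stayed between 2.70 and 20.1 CPM in sum, and Dcn was at 0. Whether other cells or the lymphoma cells themselves made these marker transcripts was not tested. Other cells would also carry class I genes, and their part in the levels below was not tested. In such bulk libraries, fewer cells of a type and less RNA per cell cannot be told apart.

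All 10 genes were abundant in every lymphoma. Each reached 10 CPM in all 3 libraries, as were 20.5% of all genes listed, and each was also above 100 CPM, as were 4.63%. Together they held 1.12% of all counts in tumour 1, 1.44% in tumour 2 and 1.13% in tumour 3. Per kilobase of exon (RPKM, the scale used here to compare genes), β2-microglobulin stood highest, the 2 classical heavy chains followed, and the transporter, tapasin and immunoproteasome genes lay close together well below them. By union exon length, B2m stood clear of H2-K1, H2-D1 of Tapbp, and Tap2 of Nlrc5 by more than their SDs. The other neighbours did not differ beyond their spread.

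**Figure D1:**
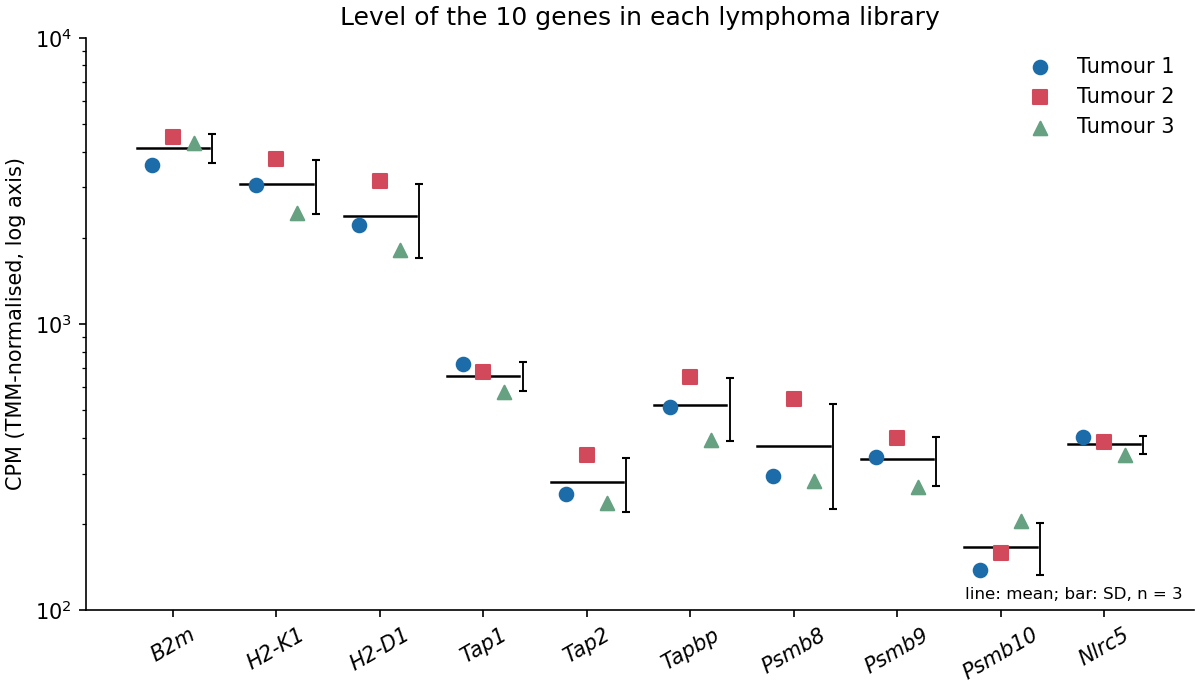
TMM-normalised CPM (log axis) of the 10 genes in tumours 1, 2 and 3 (points), with the mean (line) and SD (bar, n = 3). B2m, H2-K1 and H2-D1 lie at 1808 CPM or more in every library and the other 7 between 138 and 724 CPM.

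B2m encodes the light chain shared by all classical class I molecules (ENSMUSG00000060802, chromosome 2, 122147686 to 122153083, plus strand, mm10 with GENCODE M21). It was at 3597, 4495 and 4289 CPM in tumours 1, 2 and 3. Tumour 1 was the low one, and tumours 2 and 3 were close: tumour 2 was the highest by TMM scaling, and tumour 3 by total counts alone (0.445% against 0.447% of counts). The mean was 4127 ± 471 CPM (SD, n = 3), and per length 4799 ± 547 RPKM, rank 6 of all genes with a length. Its exons overlapped no other gene, and all of their 50-base windows, the length of a read, were found in no other gene.

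H2-K1, the K heavy chain (ENSMUSG00000061232, chromosome 17, 33996017 to 34000347, minus strand), was at 3062, 3763 and 2438 CPM in tumours 1, 2 and 3. H2-D1, the D heavy chain (ENSMUSG00000073411, chromosome 17, 35262730 to 35267499, plus strand), was at 2208, 3158 and 1808 CPM. Both heavy chains were highest in tumour 2 and lowest in tumour 3, by 1.54-fold and 1.75-fold on the log2 scale with a prior count of 2. Their means were 3088 ± 663 CPM and 2391 ± 694 CPM (SD, n = 3). Per length, H2-K1 (1051 ± 226 RPKM) and H2-D1 (927 ± 269 RPKM) differed by less than their spread, and the ratio of K to D was 1.22, 1.05 and 1.18. That order was not stable to the length used: per number of 50-base windows found in no other gene, the ratio was 1.003, 0.862 and 0.976. Such windows made up 90.4% of those of H2-K1 and 87.2% of those of H2-D1, so some reads of each may be shared with other H2 genes.

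B2m was level with or above the sum of 19 class I heavy chain genes, H2-K1 and H2-D1 included, depending on the gene length used. By union exon length, the heavy chains summed to 2758, 3355 and 2138 RPKM, and the ratio of B2m to that sum was 1.52, 1.56 and 2.33. With the longest protein-coding transcript, the ratio was 0.990, 1.03 and 1.53. Tumour 3 had the high ratio by both, with heavy chains at their lowest and B2m near its highest. The T cell marker sum was also highest in tumour 3, and its part in the ratio was not tested. H2-K1 and H2-D1 together made up 68.8%, 74.7% and 71.6% of the heavy chain sum.

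Among 18 nonclassical class I genes (the Q, T and M groups, many of which show restricted peptides or bind NK cell receptors), 17 were listed and 8 reached 10 CPM in each library. The most abundant were H2-Q6 (716 ± 136 CPM), H2-Q7 (408 ± 102 CPM), which encode Qa-2 antigens, and H2-Q4 (397 ± 94.4 CPM). H2-Q6 was at 818, 769 and 561 CPM, H2-Q7 at 526, 353 and 345 CPM, and H2-Q4 at 454, 449 and 288 CPM. Tumour 2, the peak of H2-K1 and H2-D1, was not the peak of H2-Q6 or H2-Q7, which were highest in tumour 1, while H2-Q4 was about level in tumours 1 and 2. H2-Q6 and H2-Q7 gave 18.7%, 13.5% and 16.4% of the heavy chain sum. Of the 10 nonclassical genes with a mean of at least 1 CPM, 6 were highest in tumour 2 and 9 lowest in tumour 3 (7 and 7 when scaled by total counts). Over all genes at that level, 31.1% were highest in tumour 2 and 33.0% lowest in tumour 3. On chromosome 17, where the H2 genes lie, 73.3% of other genes were higher in tumour 2 than in tumour 3. The H2-Q values are uncertain, since 65.0% of the 50-base windows of H2-Q6, 73.6% of H2-Q7 and 63.6% of H2-Q4 were found in no other gene. H2-Q10, a secreted class I protein known mainly from liver, was chosen after its values were seen. It had 13 and 21 counts in tumours 1 and 2 but 371 in tumour 3 (0.862, 1.29 and 20.9 CPM), and it shared 14.0% of its windows with H2-Q7.

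Of 7 class I-like genes, 1 reached 10 CPM in each library. This was Cd1d1, which presents lipids to NKT cells, at 49.9, 239 and 87.5 CPM. Cd1d1 was highest in tumour 2, where macrophage markers were also highest, and the part of such cells in it was not tested. Mr1, which presents vitamin B metabolites, was at 9.32 ± 1.52 CPM and Cd1d2 at 2.82 ± 2.98 CPM. Hfe, Azgp1 and Procr had means under 1 CPM.

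Tap1 (ENSMUSG00000037321, chromosome 17, 34187553 to 34197225, plus strand) was at 724, 681 and 576 CPM in tumours 1, 2 and 3. Tap2, its partner in the transporter (ENSMUSG00000024339, chromosome 17, 34203527 to 34216321, plus strand), was at 255, 349 and 236 CPM. The partners did not share an order: Tap1 was highest in tumour 1 and Tap2 in tumour 2, and both were lowest in tumour 3. By total counts alone, Tap2 was about level in tumours 1 and 3 (0.0247% against 0.0246% of counts). Per length, Tap1 (121 ± 13.9 RPKM) exceeded Tap2 (74.1 ± 16.1 RPKM) in each tumour, with ratios of 1.96, 1.35 and 1.68. In GENCODE, whose models reach further, 212 exon bases of Tap1 and of Psmb9 overlap on opposite strands (3.87% of Tap1 and 5.79% of Psmb9). The excess of Tap1 over Tap2 held with the length of the longest transcript (2.499, 1.71 and 2.15). Of the exon bases of Tap2, 14.1% overlap the opposite-strand gene Gm15821, which had 52 to 113 counts.

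Tapbp encodes tapasin, which bridges TAP and the empty heavy chain (ENSMUSG00000024308, chromosome 17, 33915899 to 33929292, plus strand). It was at 511, 653 and 393 CPM, highest in tumour 2 and lowest in tumour 3, like both heavy chains. Per length it was at 143 ± 35.9 RPKM, a little above Tap1 in each tumour (ratios of 1.07, 1.45 and 1.03) but by less than the spread between tumours, and with the longest transcript the ratio was 0.952, 1.295 and 0.921. Of its exon bases, 29.0% overlap Zbtb22 or the antisense gene Gm19412. The counts assigned to these were low beside those of Tapbp, at 499 to 600 and 0 to 4.

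All 7 other genes of peptide loading and trimming reached 10 CPM in each library, with medians of 193, 243 and 224 CPM. The leading ones were chaperones that serve many glycoproteins: Calr (calreticulin, 1029 ± 217 CPM), Pdia3 (ERp57, 783 ± 194 CPM) and Canx (calnexin, 608 ± 168 CPM). Calr was highest in tumour 2 and lowest in tumour 3, as tapasin was, while Pdia3 was lowest in tumour 1 and Canx was lowest in tumour 1 and highest in tumour 3.

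The immunoproteasome subunits were all expressed above or near the subunits that they replace. Psmb8 (β5i, ENSMUSG00000024338, chromosome 17, 34197721 to 34201454, plus strand) was at 295, 548 and 283 CPM in tumours 1, 2 and 3. Tumour 2 stood apart, and the other two were close, with tumour 3 the lowest by TMM scaling and tumour 1 by total counts alone (0.0286% against 0.0295% of counts). Psmb9 (β1i, ENSMUSG00000096727, chromosome 17, 34181987 to 34187764, minus strand) was at 342, 399 and 269 CPM, with the same order as the heavy chains. Psmb10 (β2i, ENSMUSG00000031897, chromosome 8, 105935735 to 105938444, minus strand) was at 138, 158 and 204.2 CPM. It was the only one of the 10 with its highest value in tumour 3 by TMM scaling, and by total counts B2m was as well. Per length, Psmb8 (111 ± 44.2 RPKM), Psmb10 (97.7 ± 20.0 RPKM) and Psmb9 (91.9 ± 17.8 RPKM) did not differ beyond their spread. With the longest protein-coding transcript as length, these were 230.4, 127 and 248.9 RPKM.

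The constitutive partners were Psmb5 at 19.5, 26.5 and 29.2 CPM, Psmb6 at 102, 205 and 159 CPM, and Psmb7 at 59.5, 121 and 105 CPM. All 3 were lowest in tumour 1, as Psmb10 was, whereas Psmb9 was lowest in tumour 3. Per union exon length, Psmb8 made up 80.1%, 84.6% and 72.0% of the sum with Psmb5 (mean 78.9 ± 6.37%, SD, n = 3). Psmb10 made up 82.3%, 72.4% and 79.6% of the sum with Psmb7 (78.1 ± 5.12%). Psmb9 was near parity with Psmb6, at 63.2%, 49.9% and 46.4% (53.2 ± 8.90%). The highest share of the β1 and β2 positions was in tumour 1 and that of the β5 position in tumour 2. For Psmb8 and Psmb10 the immuno subunit kept the larger share in every tumour under each length tried, while Psmb9 fell to a mean of 42.9% with the length of the longest transcript. The Psmb5 value is uncertain: 45.9% of its 50-base windows were found in no other gene, and 46.8% were shared with the pseudogene Gm3375, to which 0 to 4 counts were assigned. With only the unshared windows as length, the Psmb8 share was 65.5 ± 8.59%.

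**Figure D2:**
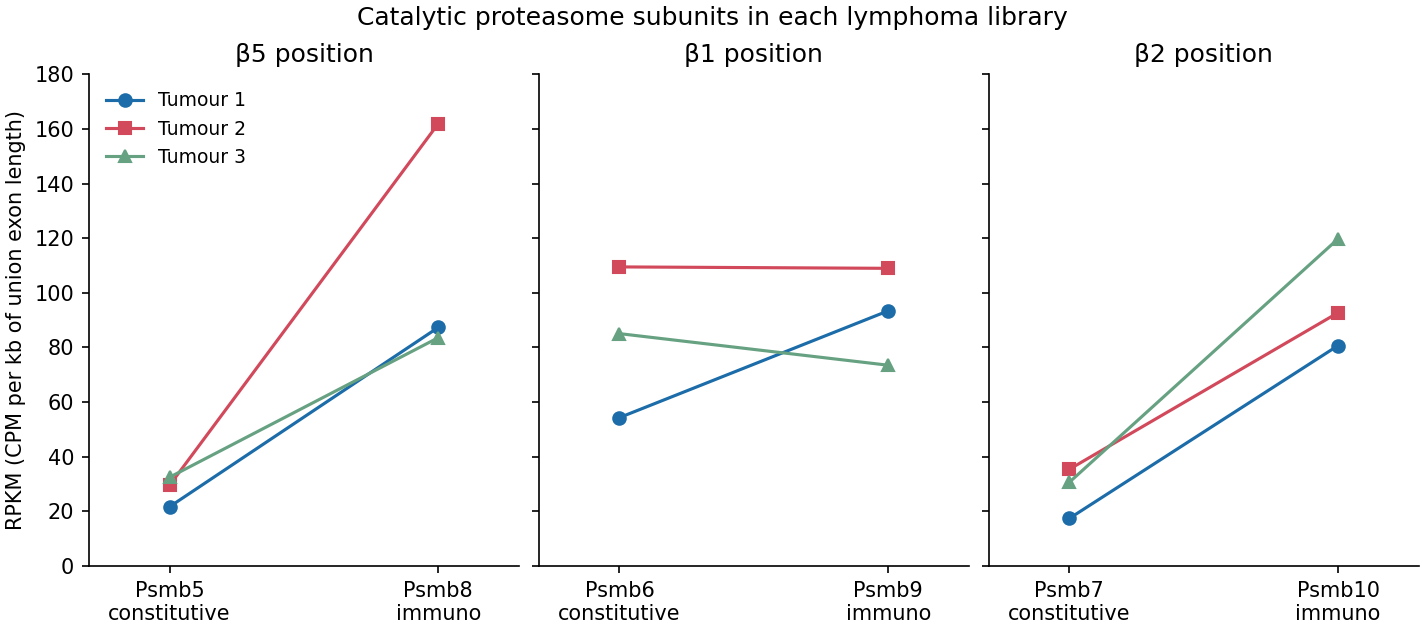
RPKM (CPM per kilobase of union exon length) of each constitutive catalytic proteasome subunit and its immuno counterpart, with 1 line per tumour. Psmb8 and Psmb10 lie above their partners in all 3 libraries, whereas Psmb9 is above Psmb6 in tumour 1, level with it in tumour 2 and below it in tumour 3.

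All 7 proteasome activator and assembly genes reached 10 CPM in each library, with medians of 123, 115 and 105 CPM. Psme1, a subunit of the interferon-inducible PA28 activator, was at 231, 266 and 321 CPM, highest in tumour 3 as Psmb10 was. Psme3, the nuclear PA28γ, led the list at 372 ± 83.8 CPM. Pomp, which assembles the proteasome core, was at 141 ± 31.7 CPM and was lowest in tumour 3.

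Nlrc5, the class I transactivator (ENSMUSG00000074151, chromosome 8, 94434356 to 94527272, plus strand), was at 403, 386 and 349 CPM in tumours 1, 2 and 3. Its 3 values were the closest together of the 10 genes on the log2 scale (SD 0.11), and 5.46% of genes with a mean of at least 1 CPM had a smaller SD. That place depended on which tumours were used: without tumour 1 B2m had the smaller SD (0.05 against 0.11), and without tumour 2 Psmb8 (0.02) and Tap2 (0.05) did (Nlrc5 0.12). The SD of Nlrc5 was 0.05 without tumour 3 and 0.05 when scaled by total counts. Its order, tumour 1 over tumour 2 over tumour 3, was that of Tap1 and not that of the heavy chains. Its level per length was 44.7 ± 3.28 RPKM, the lowest of the 10. Ciita, the related activator of class II genes, was chosen after its values were seen and was at 90.9, 111 and 101 CPM. Per length, Nlrc5 exceeded Ciita 4.98-fold, 3.91-fold and 3.87-fold.

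A list of 25 class I regulators holds RFX, NF-Y, CREB or ATF, NF-κB, IRF, STAT, JAK and interferon receptor genes, with Ezh2 and Ciita. All 25 reached 10 CPM in each library. Their medians were 102, 79.0 and 101 CPM, so tumour 2, where 7 of the 10 genes were highest, had the lowest median here. The most abundant were Jak1, an interferon receptor kinase (378 ± 119 CPM), Rel, an NF-κB subunit (351 ± 52.9 CPM), and Irf1, an interferon-induced activator (315 ± 56.3 CPM). Irf1 was at 250, 348 and 346 CPM, low in tumour 1 as B2m was. Jak1 was highest in tumour 3, and Rel was highest in tumour 1 and lowest in tumour 3. In 4 of the 25, a range of at least 2-fold (1 on the log2 scale) was seen. Over all genes this share was 41.3% at a mean of at least 1 CPM and 24.9% at 100 CPM or more. The 4 were chosen after their values were seen: Irf8, Jak2, Ifnar1 and Ezh2, which were all lowest in tumour 2. Irf8 was at 465, 79.0 and 221 CPM.

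Of 19 interferon response genes, 9 reached 10 CPM in each library, and the medians of the list were 40.7, 24.3 and 18.4 CPM. The most abundant were GTPases induced by interferon-γ: Gbp2 at 438, 1091 and 494 CPM, Gbp3 at 248, 360 and 218 CPM, and Igtp at 107, 238 and 119 CPM. All 3 were highest in tumour 2, as Psmb8 was, while the list median was highest in tumour 1. The list sum was highest in tumour 2, at 1397, 2447 and 1311 CPM. Of the 18 genes with a mean of at least 1 CPM, 5, 10 and 3 were highest in tumours 1, 2 and 3. Over all genes at that level these shares were 33.6%, 31.1% and 35.3%. Ifi44 had 2, 2 and 0 counts. A range of at least 2-fold was found in 13 of the 18 interferon genes with a mean of at least 1 CPM and in none of the 10 presentation genes. Over all genes this share was 41.3% at a mean of at least 1 CPM and 24.9% at 100 CPM or more. These counts are not matched for level: 3 of the 19 interferon genes and all 10 presentation genes reached 100 CPM in each library.

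Most of the 10 varied less between lymphomas than the median gene with a mean of at least 1 CPM. Against genes of at least 100 CPM, the level of all 10, they were nearer to the middle. Of those genes, from 6.84% (for Nlrc5) to 76.1% (for Psmb8) had a smaller SD. None of the 10 had a log2 range of at least 1, against 41.3% of genes with a mean of at least 1 CPM and 24.9% of those with at least 100 CPM. The median SD of log2 CPM was 0.29 over the 10 genes, 0.44 over genes of at least 1 CPM and 0.35 over those of at least 100 CPM. Below the first of these background medians lay 9 of the 10 genes, and below the second 7, the exceptions being H2-D1, Tapbp and Psmb8. Psmb8 had the largest SD (0.53) and a range of 0.95, just short of 2-fold. It rested on tumour 2, without which the SD of Psmb8 was 0.02. A range of 1.5-fold or more was reached by 4 genes (Psmb8, H2-D1, Tapbp and H2-K1), against 67.8% of genes with a mean of at least 1 CPM and 58.0% of those with at least 100 CPM. Each of the 30 pairwise ratios between tumours had a 95% counting interval that excluded 1, down to Psmb8 in tumour 1 over tumour 3 (1.05, interval 1.004 to 1.088). These intervals cover counting error only, at the library sizes given by TMM. By total counts alone, Psmb8 was lower in tumour 1 than in tumour 3, and B2m was lower in tumour 2 than in tumour 3. Tap2 was then about level in tumours 1 and 3. With 1 library per tumour the biological and technical spread cannot be told apart.

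**Figure D3:**
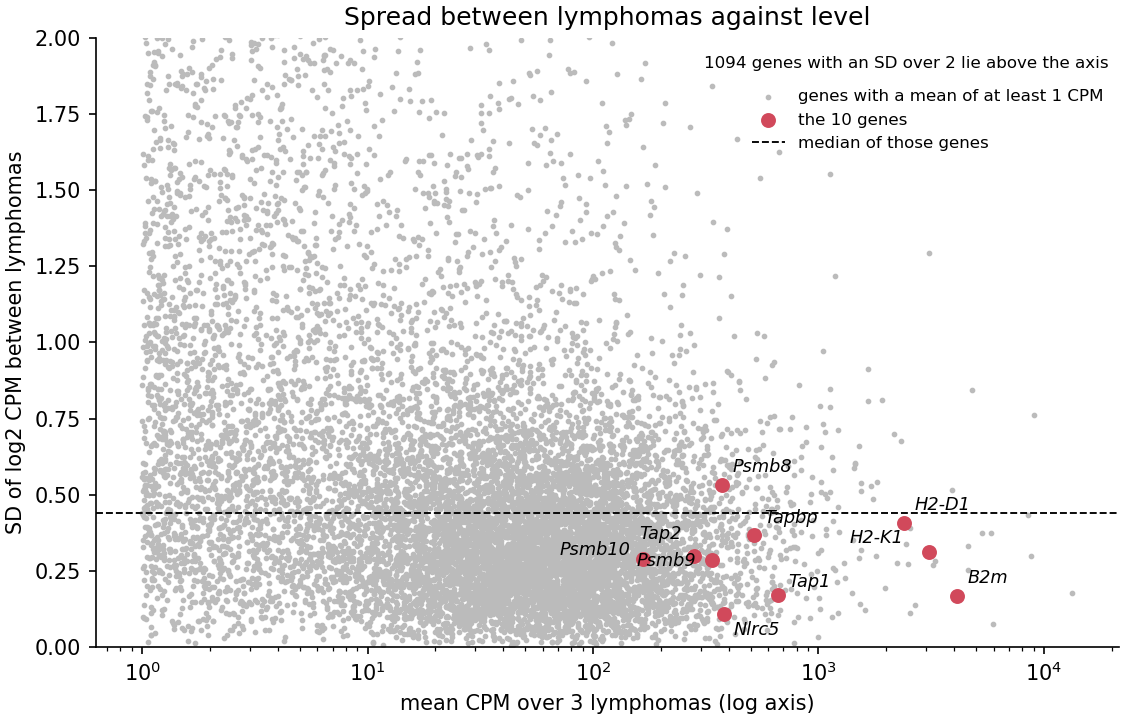
SD of log2 CPM between the 3 lymphomas against mean CPM (log axis) for genes with a mean of at least 1 CPM (grey) and the 10 genes (red), with the median of the grey genes dashed at 0.44. All of the 10 but Psmb8 lie below the dashed line, and 1094 grey genes lie above the axis.

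By tumour, 7 of the 10 genes were highest in tumour 2 (all but Tap1, Nlrc5 and Psmb10), against 31.1% of genes with a mean of at least 1 CPM. Tumour 3 was lowest for 8 of the 10 (all but B2m and Psmb10), against 33.0% of those genes. Tumour 1 was highest for 2 genes (33.6% of all) and lowest for 2 (38.1%), tumour 2 was lowest for none (28.9%), and tumour 3 was highest for 1 (35.3%). The full order tumour 2 over tumour 1 over tumour 3 was shown by 6 genes (14.8% of all): H2-K1, H2-D1, Tap2, Tapbp, Psmb8 and Psmb9. By total counts alone tumour 2 was highest for 6 and tumour 3 lowest for 7, with the changes of B2m and Psmb8 given above. The median log2 difference of the 10 genes was 0.57 for tumour 2 minus tumour 3, 0.31 for tumour 2 minus tumour 1 and 0.25 for tumour 1 minus tumour 3. The medians of all genes with at least 1 CPM were -0.01, 0.05 and -0.03. Scaling by total counts alone shifts every gene by -0.08, 0.03 and -0.11 on these differences.

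**Figure D4:**
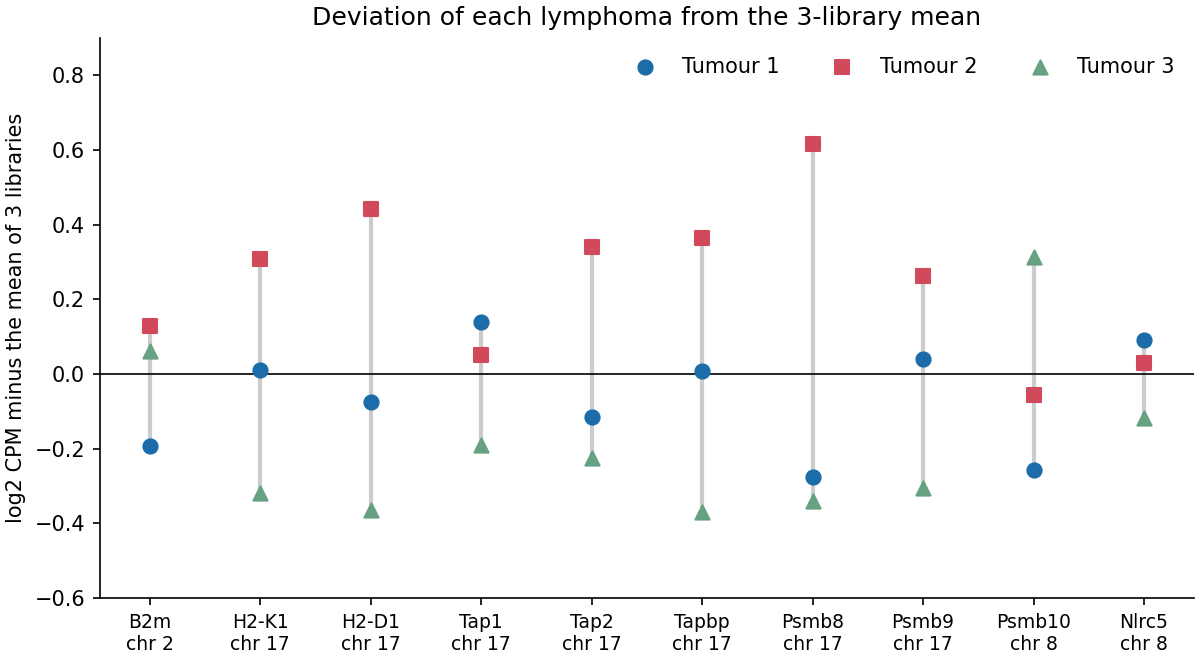
Log2 CPM of each library minus the mean of the 3 libraries, for each of the 10 genes with its chromosome. Tumour 2 is the highest point for 7 genes and tumour 3 the lowest for 8, and Psmb10 has tumour 3 on top.

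The 7 genes on chromosome 17 lie within the major histocompatibility region, and most of their neighbours were also higher in tumour 2 and in tumour 1 than in tumour 3. Among these 7, the median of tumour 2 minus tumour 3 was 0.63 on the log2 scale, from 0.24 (Tap1) to 0.95 (Psmb8), and all 7 were above 0. Between the outermost of them lay 45 other genes with a mean of at least 10 CPM that are not H2 genes. These had a median of 0.65, and 41 of 45 (91.1%) were above 0. Over chromosome 17 without the 7 genes and the H2 genes, the median of 446 genes was 0.40, and 73.3% were above 0. Chromosome 17 ranked 4 of 20 chromosomes by this difference, behind chromosomes 10, 15 and 4. For tumour 1 minus tumour 3, the 7 genes had a median of 0.33, the 45 neighbours 0.45 and the 446 genes, which include these neighbours, 0.38. For tumour 2 minus tumour 1, the 7 genes had a median of 0.36 with 6 above 0. The neighbours were at 0.17 with 29 of 45 (64.4%) above 0, and the 446 genes at 0.04 with 52.9% above 0. The part of these chromosome-wide differences in the order of the 7 genes was not tested.

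Beyond the chromosome median of 0.41 for tumour 2 minus tumour 3, Psmb8 was higher by 0.54, H2-D1 by 0.39 and Tapbp by 0.32, and Tap1 differed from it by -0.17. B2m on chromosome 2 differed between tumours 1 and 3 by -0.25, while the median gene of that chromosome differed by -0.63. Psmb10 and Nlrc5 lie on chromosome 8, where the median gene differed by -0.22 for tumour 2 minus tumour 3. Psmb10 was at -0.37 and Nlrc5 at 0.15 on that difference, on opposite sides of 0.

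**Figure D5:**
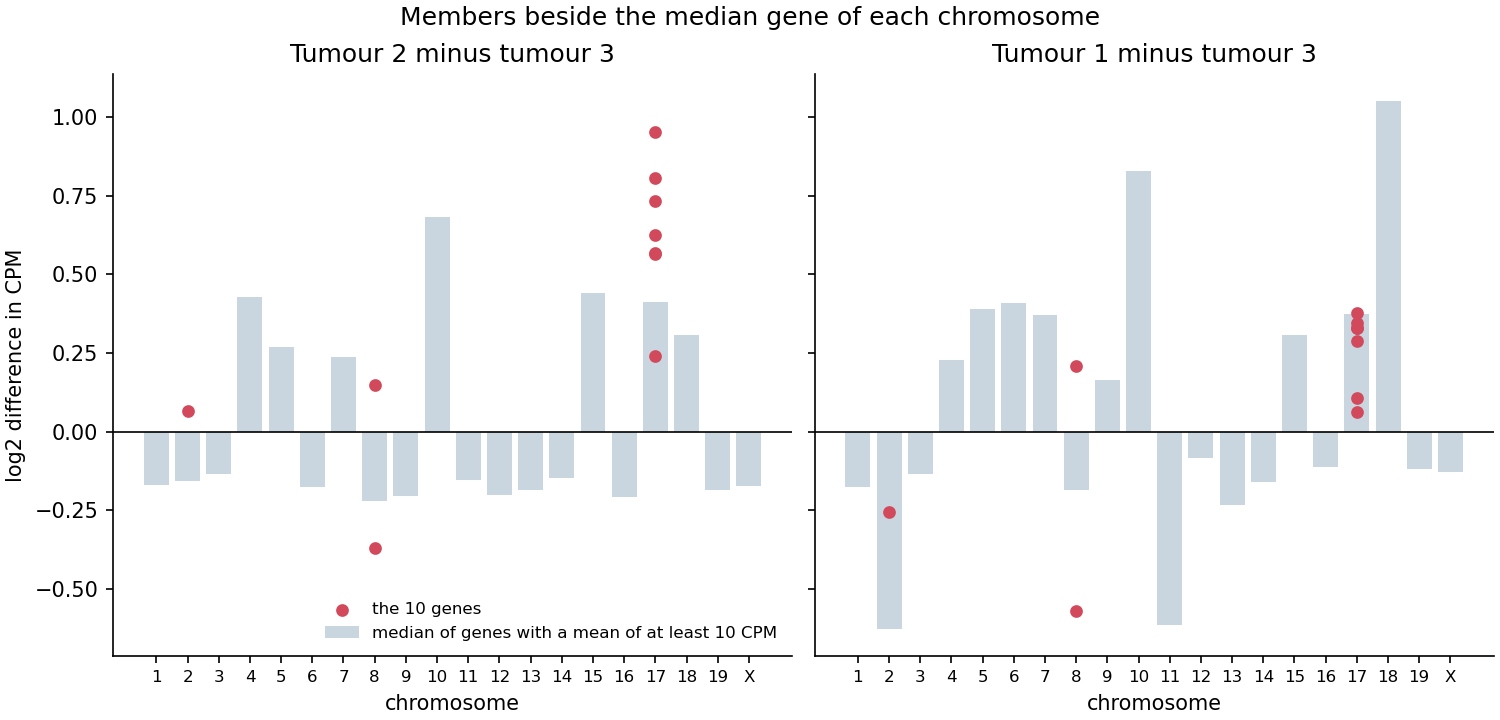
Log2 difference in CPM between tumours for the median gene of each chromosome (bars, genes with a mean of at least 10 CPM) and for the 10 genes (points). On chromosome 17 the median gene is 0.41 higher in tumour 2 than in tumour 3, and 6 of the 7 points lie above that bar. For tumour 1 minus tumour 3 that median is 0.37, and the 7 points lie level with the bar (Tapbp) or below it.

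The mean profile of the 10 genes was -0.06, 0.25 and -0.19 (log2 deviation from the 3-library mean in tumours 1, 2 and 3). Among the genes nearest to it by Euclidean distance, of 8762 with a mean of at least 10 CPM, were Tex10, Pex14, Scaf8 and Socs1, at distances of 0.011 to 0.017. Socs1 is an inhibitor of interferon receptor signalling. With 3 libraries such likeness is common: 1087 genes (12.4%) were nearer to the profile than the median of the 10 genes themselves (0.27).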

How the data were processed

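The 3 libraries were polyA-selected RNA of sorted pBIC2 lymphoma cells, sequenced from 1 end at a read length of 50 nt, per the labels. Each deposited table holds raw counts per gene. For these counts the authors used FastQC, STAR (2.5.2b) and featureCounts (1.6.0) with the mm10 build, per the submitters' processing notes. The sources used here give no annotation release, strand setting or treatment of reads that match several places, so overlapping or near-identical genes may share or lose reads.

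Tumour numbers follow accession order and carry no meaning. Of 37646 gene identifiers, 37536 matched GENCODE M21, which gave coordinates and union exon lengths. TMM factors (0.969, 0.990 and 1.04) came from edgeR 4.0.16 (R 4.3.3) on 11273 genes kept by filterByExpr and were applied to total counts. Log2 CPM used a prior count of 2, and RPKM is TMM-normalised CPM per kilobase. Intervals are exact 95% intervals of counts. No test between groups was run, since there is 1 group. The normalisation was checked on simulated counts. Other steps used Python 3.11.15 with pandas 2.3.3, NumPy 2.4.6, matplotlib 3.10.9 and SciPy 1.17.1, and DESeq2 1.42.0 gave size factors as an alternative. Further alternatives were total counts, no filter, other prior counts, lengths and thresholds, and leaving out each tumour. Promoters of chromosome 18 were left out of the motif background.

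The 10 genes, the lists beside them (constitutive and activator proteasome genes, peptide loading, nonclassical class I, class I-like, class I regulators, interferon response and cell type markers) and the motifs were chosen with earlier results of these data known. Named were the 10 genes, their constitutive partners, the 3 most abundant genes of each list (2 of a marker list), with those under 1 CPM where 5 or fewer, and the 5 genes of likest pattern. Some genes named by this rule are not reported here. Other genes are said to be chosen later or are the extremes of a marker list.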

Additional observations from a re-analysis of the deposited data

How the results depend on the processing

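Of 277 alternative values, 231 stayed within the spread between tumours (counts and SDs within 1.5 times) and 46 moved further. Most of these came from another gene length or from leaving out a tumour. Scaling by DESeq2 size factors, total counts or factors from unfiltered genes moved the 3-library mean of a gene by at most 0.57%. Such factors balance out over the libraries, so this mean can hardly move by construction. Single libraries moved more: total counts alone shifted the difference of tumour 1 minus tumour 3 by -0.11 on the log2 scale. Leaving out 1 tumour moved the mean level of a gene by at most 22.6%. With 3 libraries, leaving out 1 can hardly move a mean by more than its SD. Such values among the 231 thus stayed nearly by construction. The median level was then 415 to 517 CPM (476 with all), and the median SD 0.20 to 0.40. All 10 genes stayed above 10 CPM, and 0 had a 2-fold range throughout. Leaving out a tumour can hardly widen a range, so that 0 was nearly fixed in advance. With a range of 1.5-fold in place of 2-fold, 4 genes were called, against 67.8% of all genes averaging 1 CPM or more. The immuno share depended on the gene length used, which acts on it by construction. For Psmb8 with Psmb5 it was 86.8% with the longest transcript, 93.3% of raw counts, and, added after seeing the data, 88.5% with the longest protein-coding transcript and 65.5% with windows found in no other gene. For Psmb9 with Psmb6 it was 42.9% with the longest transcript and 68.6% of raw counts. For Psmb10 with Psmb7 it was 64.2% of raw counts and 61.4% with the longest protein-coding transcript. Leaving out 1 tumour gave 76.1 to 82.3% for Psmb8, 48.1 to 56.6% for Psmb9 and 76.0 to 80.9% for Psmb10. Mean ratios between genes, with lengths added later, crossed 1 for H2-K1 to H2-D1 (1.15 to 0.947 with windows found in no other gene) and Tapbp to Tap1 (1.18 to 0.797 with the longest protein-coding transcript), and Tap1 to Tap2 went from 1.66 to 2.81 with the latter. No paired analysis was possible because there is 1 group. Depth does not limit the 10 genes, which had at least 2076 counts each, but the number of tumours limits what their spread can show.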
